A study of Mus musculus with 8 samples.

Results

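Whole-colon RNA from 4 Ptch1ΔCol1 mice and 4 controls was hybridised to arrays, and 10 genes of heat shock proteins and their partners were followed among the 22180 genes with a named transcript cluster on the arrays: Hspb1, Hspb6, Hspb8, Cryab, Hspa1a, Hspa1b, Hspa8, Dnajb1, Hsph1 and Hsp90aa1. They were matched by symbol, and all 10 were found. Hspb1 was chosen by its higher values in the Ptch1ΔCol1 mice of these same arrays, so its difference between the groups is given as a description without a test, and the other 9 genes were taken along as members of the same protein families. The Ptch1ΔCol1 mice carried Col1a2CreER, in which a Col1a2 promoter transgene drives a tamoxifen-activated Cre in stromal cells, and Ptch1fl/fl, and 2 of them also carried R26-LSL-tdTomato. Of the controls, 2 were Ptch1fl/+ and 2 carried R26-tdTomato, and none carried Cre. By the protocol given for all 8 samples, tamoxifen was injected into the abdomen at 5 mg per 25 g of body weight, and a piece of colon 1 cm long was taken 1.5 cm from the anus after 7 days. Each group had 3 females and 1 male, and the age of the mice is not given in the sources used here. Since Cre and the loss of Ptch1 occur in the same mice, their effects cannot be told apart in this design, and systemic tamoxifen lets this Cre act in many organs.

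Heat shock proteins are chaperones that keep other proteins from clumping and help them to fold. Small heat shock proteins (Hspb1, Hspb6, Hspb8 and Cryab) hold unfolded proteins without using ATP and are abundant in muscle. Proteins of the Hsp70 family (Hspa1a, Hspa1b, Hspa8) fold clients in cycles of ATP hydrolysis that J-domain proteins such as Dnajb1 start and that nucleotide exchange factors such as Hsph1 reset, and Hsp90 proteins such as Hsp90aa1 act on later steps. After heat or other protein damage the transcription factor Hsf1 induces many of these genes together through heat shock elements, repeats of GAA and TTC spaced by 2 bases.

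Array medians lay from 4.69 to 4.8 on the log2 scale. Each array correlated with the rest at a mean r of 0.985 to 0.987, except that of Ptch1ΔCol1 replicate 3, the male of that group, at 0.979. Ptch1, the floxed gene, whose deleted allele can still be transcribed, was at 9.58, 9.21, 9.19 and 9.63 in Ptch1ΔCol1 replicates 1 to 4 and from 8.48 to 8.77 in the controls, so its level does not check the deletion (log2 fold change 0.82, limma adjusted p = 0.139, with Benjamini-Hochberg adjustment over all genes). The Hh targets Gli1 and Hhip rose by 1.36 and 1.84 on the log2 scale (limma adjusted p = 0.00203 and 0.0431). Epithelial markers, which check the labelled tissue, had a mean log2 value from 12.1 to 12.3 over the 8 mice. Over all genes limma called 6 at an adjusted p under 0.05, which is 0.0271% of those tested (4 higher in Ptch1ΔCol1 mice, 0.018%, and 2 lower, 0.00902%). Of the 9 members other than Hspb1, 0 were called in either direction. At an unadjusted p under 0.05, 1 of the 9, Hspa1b, was higher and 0 were lower, while 956 genes were higher and 1088 lower over all genes. Of the 9, 7 had a higher mean and 2 a lower mean in Ptch1ΔCol1 mice, with a median log2 fold change of 0.12, where the median of all genes was -0.01. The groups did not overlap for 1 of the 9, Hspa1a, nor for 5.37% of all genes.

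**Figure D1:**
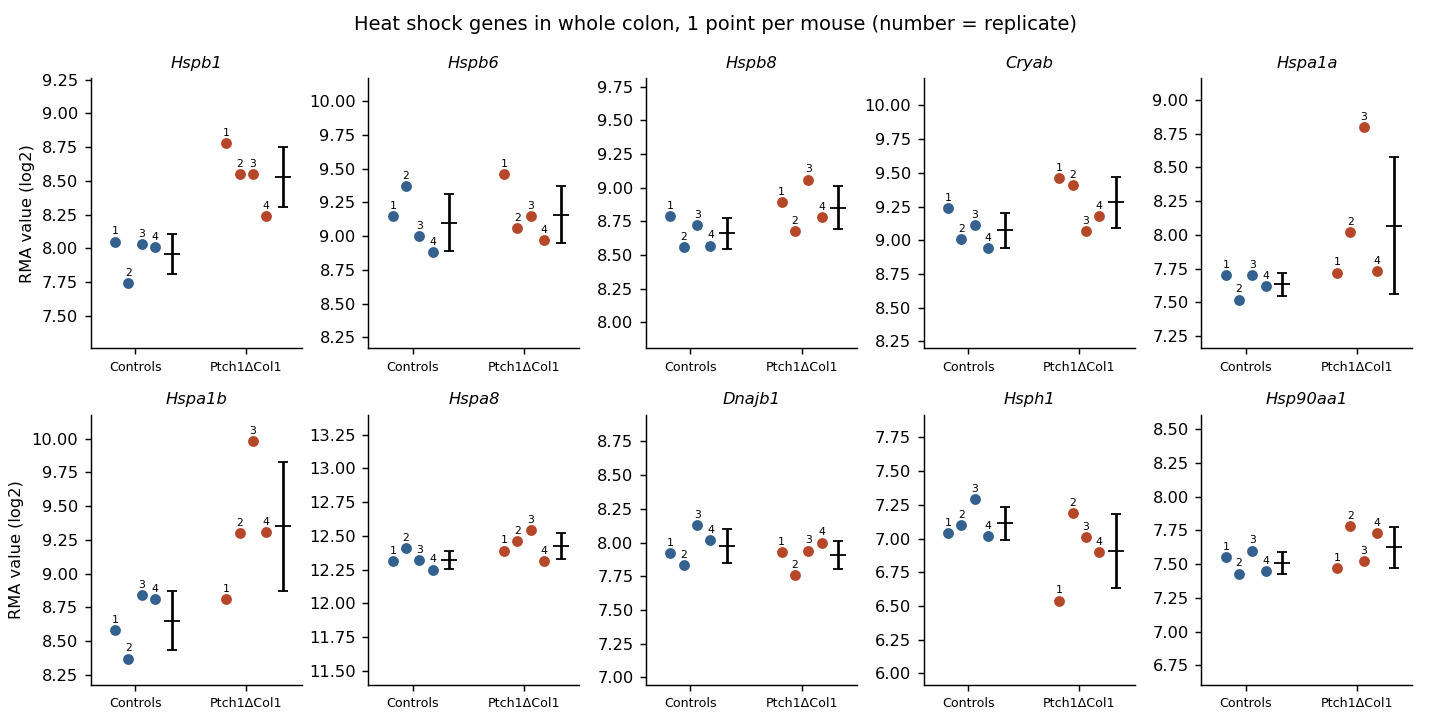
RMA values on the log2 scale (y axis, each panel spanning the same range of 2 log2 units) of the 10 genes in 4 controls and 4 Ptch1ΔCol1 mice. Each point is a mouse, numbered by replicate, and the bar is the mean with its SD. For Hspb1 all Ptch1ΔCol1 mice lie from 8.24 to 8.78 and all controls from 7.74 to 8.05, and the Hspa1a and Hspa1b points of Ptch1ΔCol1 replicate 3 stand highest in their panels.

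Hspb1, which encodes the small heat shock protein called Hsp25 in mouse, a chaperone that also binds actin filaments, was at 8.78, 8.55, 8.55 and 8.24 in Ptch1ΔCol1 replicates 1 to 4 and at 8.05, 7.74, 8.03 and 8.01 in control replicates 1 to 4 (transcript cluster 17443342, log2 RMA values). Every Ptch1ΔCol1 mouse lay above every control, and the lowest Ptch1ΔCol1 mouse was replicate 4. The means were 8.53 ± 0.22 and 7.96 ± 0.15 (SD, n = 4 mice per group), a log2 fold change of 0.57 or a 1.49-fold higher level. These are the values that chose the gene, and among all genes 2.47% were higher without overlap. Leaving out any mouse moved the log2 fold change between 0.49 and 0.67, and in the females alone it was 0.49. Against the Ptch1fl/+ controls alone it was 0.64, and against the R26-tdTomato controls alone 0.51. In a piece of whole tissue, more cells that express a gene and more RNA per cell cannot be told apart, for Hspb1 and for all genes below.

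A second transcript cluster named Hspb1 (17286958) was dimmer, at 4.56, 4.32, 4.97 and 3.89 in Ptch1ΔCol1 replicates 1 to 4 and at 4.24, 3.84, 3.90 and 3.89 in the controls. Except in Ptch1ΔCol1 replicate 3, these values lay below the array medians of 4.69 to 4.8. Here the groups overlapped, since Ptch1ΔCol1 replicate 4 was at the level of the controls and control replicate 1 above it. The means were 4.44 ± 0.45 and 3.97 ± 0.18 (SD, n = 4), a log2 fold change of 0.47, and with the 2 clusters averaged the log2 fold change of Hspb1 was 0.52.

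To show where heat shock elements could be read, the 250 bases before the start site of Hspb1 are printed from the RefSeq table of assembly GRCm38.p6 (chr5:135887669-135887918, plus strand), in lower case with each match of GAANNTTC in capitals. This motif of inverted GAA units reads the same on both strands.
Hspb1: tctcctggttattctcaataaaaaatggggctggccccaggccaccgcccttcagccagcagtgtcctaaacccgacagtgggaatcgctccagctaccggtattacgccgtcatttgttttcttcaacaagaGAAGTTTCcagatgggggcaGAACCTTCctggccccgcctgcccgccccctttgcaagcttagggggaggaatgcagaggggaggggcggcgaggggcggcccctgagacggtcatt
There were 2 matches, GAAGTTTC from 117 to 110 bases and GAACCTTC from 97 to 90 bases before the start. Among 32851 windows of this length, 6.69% held at least 1 such match and 0.228% held 2 or more. A match describes the letters and was not tested for binding.

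Those genes whose variation within the groups was most like that of Hspb1 were, by Pearson's r of the deviations from the group mean over the 8 mice, Slc22a14 (0.99), Gm12295 (0.98), Syna (0.97), Cacfd1 (0.97) and Klhl22 (0.96). They are the highest of all genes by this measure and no member is among them. How high r would come by chance in a search of all genes over 8 mice was not tested. Slc22a14 (2.78 to 3.08), Gm12295 (3.05 to 3.63) and Syna (3.49 to 4.2) lay below the array medians, Cacfd1 and Klhl22 above them. The log2 fold changes of the 5 genes between the groups lay from -0.12 to 0.28, below that of Hspb1 in each case.

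Hspb6, a small heat shock protein known as Hsp20 that takes part in smooth muscle relaxation, was at 9.46, 9.06, 9.15 and 8.97 in Ptch1ΔCol1 replicates 1 to 4 and at 9.15, 9.37, 9.0 and 8.88 in the controls. The groups covered nearly the same range, with Ptch1ΔCol1 replicate 1 and control replicate 2 at the top. The means differed by 0.06 log2 units (standard error, SE, 0.14, 95% interval -0.24 to 0.36, limma adjusted p = 0.919), and the difference turned negative in 3 of 21 alternatives (-0.10 against the Ptch1fl/+ controls alone).

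Hspb8, known as Hsp22, which works with the co-chaperone Bag3 to clear damaged proteins in muscle, was at 8.89, 8.68, 9.06 and 8.78 in Ptch1ΔCol1 replicates 1 to 4 and at 8.79, 8.56, 8.72 and 8.57 in the controls. Its highest values were in Ptch1ΔCol1 replicates 3 and 1, and control replicate 1 lay above 2 of the Ptch1ΔCol1 mice. This gave a log2 fold change of 0.19 (SE 0.10, 95% interval -0.04 to 0.42, limma adjusted p = 0.597), and 0.12 without replicate 3. Bag3 overlapped between the groups (8.90 to 9.40 against 9.15 to 9.21, log2 fold change -0.07, limma adjusted p = 0.866, and -0.17 without replicate 3).

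Cryab, the alpha B crystallin of lens and muscle, was at 9.46, 9.41, 9.07 and 9.18 in Ptch1ΔCol1 replicates 1 to 4 and at 9.24, 9.01, 9.11 and 8.94 in the controls. Replicates 1 and 2 were above every control and replicates 3 and 4 within their range. Its log2 fold change was 0.21 (SE 0.11, 95% interval -0.04 to 0.45, limma adjusted p = 0.602). A dimmer cluster of Cryab (17548750) was at 6.27, 5.98, 5.91 and 5.70 in Ptch1ΔCol1 replicates 1 to 4 and from 5.55 to 5.74 in the controls. There 3 of 4 Ptch1ΔCol1 mice were above every control, and replicate 4 was not, with a log2 fold change of 0.30 (SE 0.13, limma adjusted p = 0.586 over all clusters).

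Of 5 other small heat shock genes 4 were measured by a cluster of their own, and none passed over all genes. Hspb7, a heart and muscle member, was at 8.24, 8.28, 9.19 and 8.44 in Ptch1ΔCol1 replicates 1 to 4 and at 8.07, 7.72, 8.12 and 8.01 in the controls. The groups did not overlap, with replicate 3 far above the rest and control replicate 2 lowest, and the log2 fold change was 0.56 (SE 0.20, 95% interval 0.11 to 1.00, limma adjusted p = 0.479), and 0.34 without replicate 3. Hspb3, from 3.26 to 3.48 in Ptch1ΔCol1 mice against 3.43 to 3.78 in controls, had a log2 fold change of -0.25 (limma adjusted p = 0.519). Its values lay below the array medians in all mice.

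**Figure D2:**
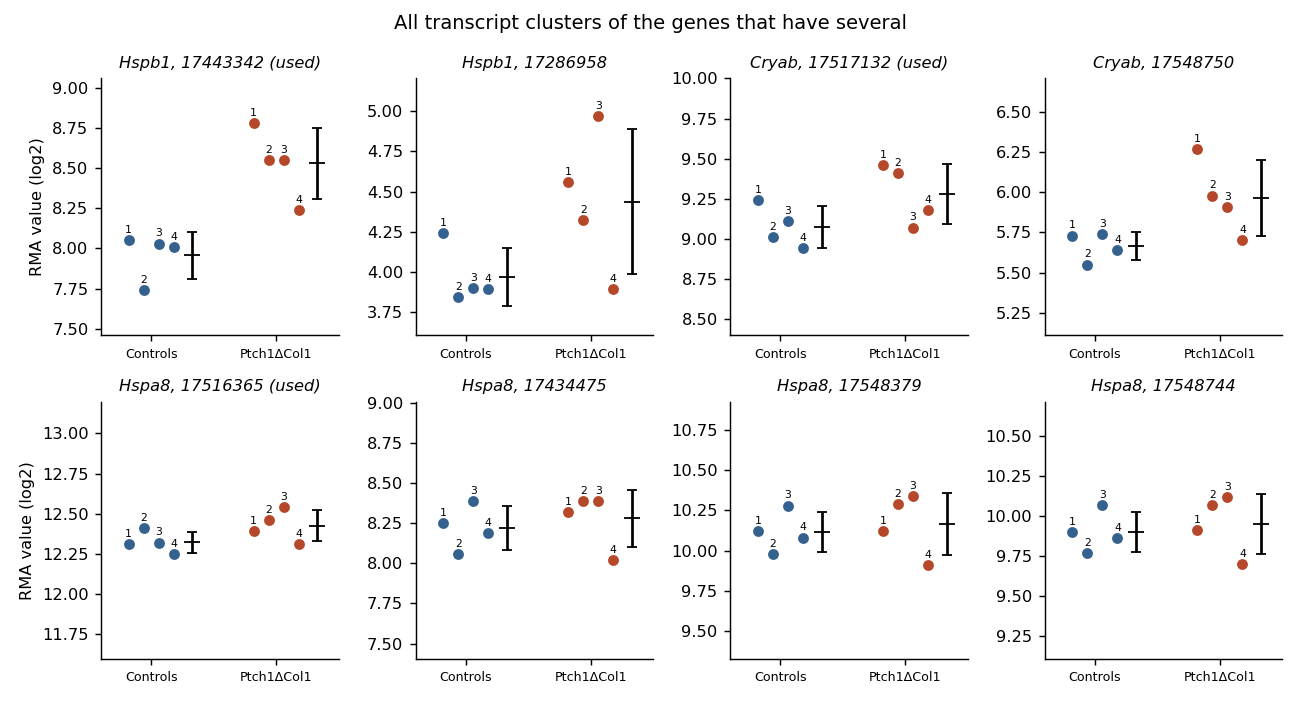
RMA values on the log2 scale (y axis) of all transcript clusters named Hspb1, Cryab or Hspa8, 1 point per mouse with its replicate number and the mean with SD as the bar. The Hspb1 cluster used here separates the groups (8.24 to 8.78 against 7.74 to 8.05), its dimmer cluster does not (3.89 to 4.97 against 3.84 to 4.24), and the 4 Hspa8 clusters overlap between the groups.

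Hspa1a and Hspa1b encode the stress-inducible Hsp70 proteins and are near copies of each other without introns. Because of this, probes of one can catch transcripts of the other, and their values are uncertain as values of single genes. Their upstream sequences are printed because these genes and Hspb1 had the largest mean differences of the 10 (GRCm38.p6, minus strand, chr17:34972157-34972406 for Hspa1a and chr17:34959239-34959488 for Hspa1b, the 250 bases before the start, matches of GAANNTTC in capitals).
Hspa1a: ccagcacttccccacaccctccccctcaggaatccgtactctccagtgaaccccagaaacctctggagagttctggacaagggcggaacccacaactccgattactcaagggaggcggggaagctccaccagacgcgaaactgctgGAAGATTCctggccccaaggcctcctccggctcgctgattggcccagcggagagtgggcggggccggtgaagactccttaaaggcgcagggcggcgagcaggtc
Hspa1b: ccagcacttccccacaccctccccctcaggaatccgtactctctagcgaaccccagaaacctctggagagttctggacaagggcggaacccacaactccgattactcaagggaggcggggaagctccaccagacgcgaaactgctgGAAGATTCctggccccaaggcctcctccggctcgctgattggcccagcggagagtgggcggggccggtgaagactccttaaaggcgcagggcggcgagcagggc
Position by position 247 of the 250 bases were the same in both. Each held 1 match, GAAGATTC, from 104 to 97 bases before the start, where 6.69% of all windows had at least 1.

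Hspa1b was at 8.81, 9.30, 9.98 and 9.31 in Ptch1ΔCol1 replicates 1 to 4 and at 8.58, 8.37, 8.84 and 8.81 in the controls. Replicates 2, 3 and 4 lay above every control, replicate 3 the farthest, while replicate 1 was at the level of control replicate 4. The means were 9.35 ± 0.48 and 8.65 ± 0.22 (SD, n = 4 mice per group), and the log2 fold change of 0.70 was the largest of the 10 genes (SE 0.22, 95% interval 0.21 to 1.19), a 1.62-fold higher level. With a limma adjusted p of 0.440 it was not called. Leaving out Ptch1ΔCol1 replicate 3 gave 0.49 (adjusted p = 0.340) and leaving out replicate 1 gave 0.88 (adjusted p = 0.301), while the females alone gave 0.40 (adjusted p = 0.421). Against the Ptch1fl/+ controls alone it was 0.88, and against the R26-tdTomato controls alone 0.53.

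Hspa1a was at 7.72, 8.02, 8.80 and 7.73 in Ptch1ΔCol1 replicates 1 to 4 and at 7.70, 7.52, 7.70 and 7.62 in the controls. All Ptch1ΔCol1 mice were above all controls, but replicates 1 and 4 only just, and replicate 3 was far above the rest. The means differed by 0.43 log2 units (SE 0.21, 95% interval -0.04 to 0.91, limma adjusted p = 0.575). Leaving out replicate 3 gave 0.19 (SE 0.10, adjusted p = 0.534), and the females alone gave 0.15 (adjusted p = 0.653). The difference in means thus rested largely on this male mouse.

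Hspa8, the constitutive Hsp70 of unstressed cells, was at 12.39, 12.46, 12.54 and 12.31 in Ptch1ΔCol1 replicates 1 to 4 and at 12.31, 12.41, 12.32 and 12.25 in the controls. All 8 mice lay within a narrow range, and only replicates 2 and 3 were above every control. This gave a log2 fold change of 0.10 (SE 0.08, 95% interval -0.08 to 0.29, limma adjusted p = 0.726). In the other 3 clusters named Hspa8 it was 0.06 (17434475), 0.05 (17548379) and 0.05 (17548744), each with overlap. Of 11 other genes of the Hsp70 and Hsp110 family 4 had a higher and 7 a lower mean, 0 of them called, a median of -0.005 and a range from -0.13 (Hspa13) to 0.13 (Hyou1). Hspa12a was the next highest at 0.12 and Hspa4l the next lowest at -0.11, but these 4 values moved with single mice. Without Ptch1ΔCol1 replicate 3, Hyou1 was at 0.02 and Hspa12a at -0.013, and without replicate 1, Hspa4l was at 0.0042 and Hspa13 at -0.07.

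**Figure D3:**
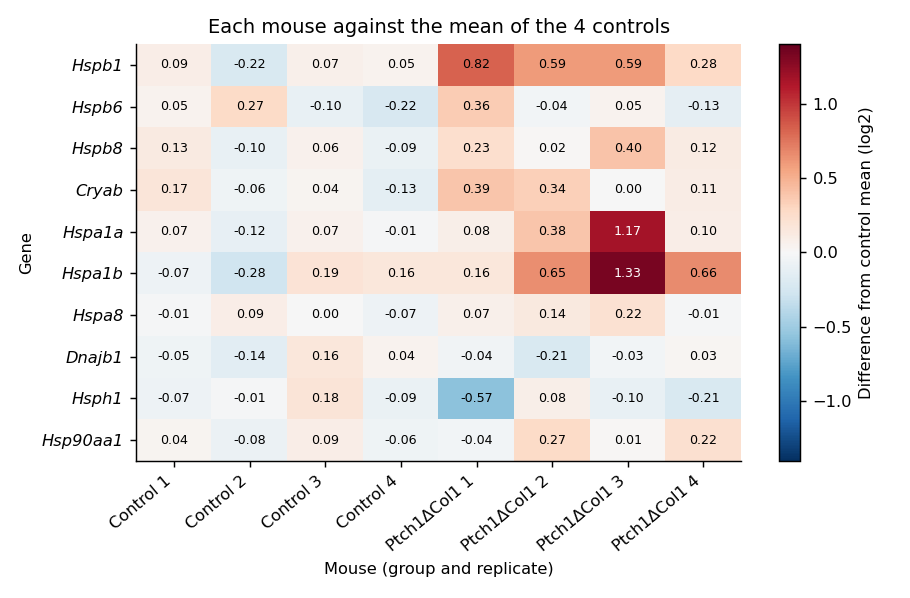
Difference of each mouse (x axis, group and replicate) from the mean of the 4 controls for the 10 genes (y axis), as numbers and colour on the log2 scale. Ptch1ΔCol1 replicate 3 is at 1.33 for Hspa1b and also highest for Hspa1a, replicate 1 is at 0.82 for Hspb1 and -0.57 for Hsph1, and the rows of Dnajb1, Hspa8 and Hsp90aa1 stay pale in both groups.

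Dnajb1, the Hsp40 that starts the ATP cycle of Hsp70 and is itself a target of Hsf1, was at 7.93, 7.76, 7.94 and 8.00 in Ptch1ΔCol1 replicates 1 to 4 and at 7.92, 7.83, 8.13 and 8.02 in the controls. The ranges overlapped nearly in full, and the lowest value was that of Ptch1ΔCol1 replicate 2. Its log2 fold change was -0.07 (SE 0.09, 95% interval -0.28 to 0.14, limma adjusted p = 0.854) and it turned to 0.03 against the Ptch1fl/+ controls alone. Of 26 other J-domain genes 24 were measured, 10 of them higher, 14 lower, 0 called, with a median of -0.04. Dnajc9 (0.22), a histone chaperone, Dnajb5 (0.21) and Dnajc15 (0.21), of the mitochondrial inner membrane, were highest, although Dnajb5 was at 0.02 without Ptch1ΔCol1 replicate 3, and the groups did not overlap for Dnajc15 (8.73 to 8.86 against 8.53 to 8.66, limma adjusted p = 0.493). Dnajc13 (-0.16) and Dnaja3 (-0.15) had the lowest log2 fold changes, and that of Dnaja3 was -0.10 without replicate 1 and -0.25 without replicate 3.

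Hsph1, which encodes Hsp105 of the Hsp110 family and releases ADP from Hsp70, was at 6.54, 7.19, 7.01 and 6.90 in Ptch1ΔCol1 replicates 1 to 4 and at 7.04, 7.10, 7.29 and 7.02 in the controls. Replicate 1 was the lowest of all 8 mice and replicate 2 the second highest. The means differed by -0.20 log2 units (SE 0.14, 95% interval -0.51 to 0.10, limma adjusted p = 0.670), and by -0.08 without replicate 1. Its upstream bases are printed to set them beside those of Hspa1a and Hspa1b (GRCm38.p6, chr5:149636337-149636586, minus strand, 250 bases before the first of 2 start sites in the table), with the match of TTCNNGAA in capitals.
Hsph1: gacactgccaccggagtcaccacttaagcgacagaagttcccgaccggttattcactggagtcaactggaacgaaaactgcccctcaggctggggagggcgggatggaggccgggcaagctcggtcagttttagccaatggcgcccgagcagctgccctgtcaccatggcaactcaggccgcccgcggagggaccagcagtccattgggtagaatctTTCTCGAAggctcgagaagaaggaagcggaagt
TTCTCGAA stood from 33 to 26 bases before this start, and no GAANNTTC was found. TTCNNGAA, which also reads the same on both strands, occurred in 7.17% of all windows, and the longer element of 3 alternating units in 0.466% and in no window of a member. Of the 10 members 7 were found in the promoter table. Hspb6 had 1 GAANNTTC before 1 of its 2 listed starts, and the windows of Hspb8 and Dnajb1 held neither motif.

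Hsp90aa1, the inducible cytosolic Hsp90, was at 7.47, 7.78, 7.52 and 7.73 in Ptch1ΔCol1 replicates 1 to 4 and at 7.55, 7.43, 7.60 and 7.45 in the controls. Replicates 2 and 4 lay above every control and the other two within their range. This gave a log2 fold change of 0.12 (SE 0.10, 95% interval -0.10 to 0.33, limma adjusted p = 0.734), and 0.07 without replicate 2. Among 12 other Hsp90 proteins and co-chaperones 11 were measured, with 5 of them higher, 6 lower and 0 called. Chordc1, a co-chaperone that Hsf1 induces, was at 7.93, 8.45, 8.54 and 8.54 in Ptch1ΔCol1 replicates 1 to 4 and at 8.67, 8.56, 8.95 and 8.79 in the controls. It was lower without overlap, as were 2.9% of all genes, with a log2 fold change of -0.38 (SE 0.15, 95% interval -0.71 to -0.05, limma adjusted p = 0.511), and of -0.23 without replicate 1. Unc45b, a myosin chaperone, had one of -0.35, at values from 4.00 to 4.63 that lay below the array medians in all mice. The highest were Ptges3 and Stip1 at 0.17 each, which were at 0.11 and 0.095 without Ptch1ΔCol1 replicate 3. Without control replicate 3, Ptges3 was at 0.048.

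The remaining chaperone lists held no gene past the test either. Of 10 chaperonin genes 4 were higher and 6 lower, from -0.23 for Hspd1, the mitochondrial Hsp60, to 0.07 for Cct2, which was at 0.029 without Ptch1ΔCol1 replicate 3. In Hspd1 all but 1 Ptch1ΔCol1 mouse lay at or below the lowest control, and replicate 1 was lowest at 9.77, as it was in Hsph1, in Chordc1 and, at 8.0, in Hspa4l. Without replicate 1 the log2 fold change of Hspd1 was -0.14. Of 9 measured nucleotide exchange factors and related genes 4 were higher and 5 lower, led by Bag2 at 0.27 and Sil1 at 0.19 and ending with Hspbp1 at -0.16, which was at -0.24 without Ptch1ΔCol1 replicate 3 and at -0.098 without control replicate 1. Bag6 did not overlap, with 9.58 to 9.91 in Ptch1ΔCol1 mice against 9.47 to 9.56 (log2 fold change 0.17, limma adjusted p = 0.585, and 0.11 without replicate 3).

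Among 4 measured genes of heat shock factors and their regulator, Hsf2, Hsf4 and Hsf5 were at -0.03, -0.09 and 0.08, and each changed sign when a mouse was left out. The values of Hsf5, from 3.38 to 4.29, lay below the array medians in all mice. Hsbp1, which encodes a small protein that binds Hsf1 and holds it inactive, was at 11.15, 11.26, 11.31 and 11.10 in Ptch1ΔCol1 replicates 1 to 4 and at 10.93, 10.86, 10.92 and 10.94 in the controls. All Ptch1ΔCol1 mice were above all controls, and both groups were tight. Its log2 fold change was 0.29 (SE 0.08, 95% interval 0.12 to 0.47), with limma adjusted p = 0.383, the lowest of the 84 measured chaperone genes outside the members. Hsf1 itself was not analysed here, as no cluster carried its symbol alone.

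Of 17 measured chaperone and stress genes of the endoplasmic reticulum (ER) 11 were higher and 6 lower, with a median of 0.04. Sdf2l1, an ER chaperone partner, did not overlap, with 9.69 to 9.83 in Ptch1ΔCol1 mice against 9.44 to 9.65 (log2 fold change 0.23, limma adjusted p = 0.470). Calr, the ER calcium-binding chaperone calreticulin, only just did not overlap, with 11.83 to 11.97 in Ptch1ΔCol1 mice against 11.73 to 11.82. Its log2 fold change was 0.13 (limma adjusted p = 0.612). Atf4, a factor of the stress response, was at 0.17. Ddit3, a factor of severe ER stress, and Herpud1 were lowest at -0.06 and -0.04, of which Herpud1 was at 0.07 without Ptch1ΔCol1 replicate 4. Over the 84 genes together, 37 were higher and 47 lower, with a median of -0.01 equal to that of all genes. Of these, 6 were higher and 1 was lower without overlap, where 2.47% of all genes were higher and 2.9% lower without overlap. At an unadjusted p under 0.05, 5 were higher and 3 lower, where 956 of all 22180 genes were higher and 1088 lower.

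Of 14 genes that Hsf1 induces, a list that holds 7 of the 10 members, 13 were measured. Their median log2 fold change was -0.07, with 6 higher and 7 lower, and the range from -0.38 for Chordc1 to 0.70 for Hspa1b was the widest of the chaperone lists. Hspb1, which was chosen for its rise, is among the 6. Hspa1a, at 0.43 with all mice, was at 0.19 without Ptch1ΔCol1 replicate 3, where Hsp90aa1 was at 0.15. No difference between genes was tested.

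**Figure D4:**
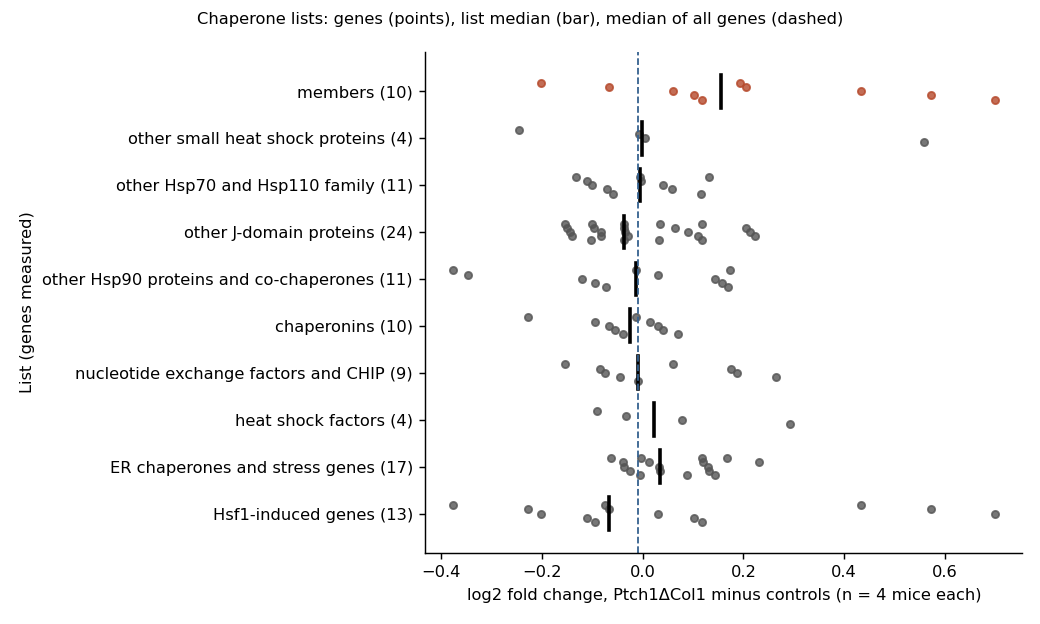
Log2 fold change between Ptch1ΔCol1 mice and controls (x axis, n = 4 mice each) of every measured gene (points) in the 10 members and 9 chaperone lists (y axis, with the number of genes measured), with the median of each list as a bar and that of all genes, -0.01, as a dashed line. Medians of the 9 lists lie from -0.07 to 0.04, and the members, of which Hspb1 was chosen for its rise, have a median of 0.16.

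Whether the inducible genes rise and fall together from mouse to mouse was asked within the groups, with each group's mean removed, for 9 relations over the 8 mice (two-sided exact permutation of the mice within groups). Hspa1b went with Hspa1a at Pearson's r = 0.86 (permutation p = 0.028, adjusted p = 0.25 over 9 relations) and Spearman's rho = 0.72 (permutation p = 0.069, adjusted p = 0.31). Without the 2 mice farthest from the median of Hspa1b, Ptch1ΔCol1 replicates 3 and 1, r was 0.38. It was 0.56 without replicate 3 alone and 0.85 without replicate 1 alone. Of the mice left out singly, replicate 3 thus lowered r the most. Probes of Hspa1a can catch transcripts of Hspa1b and the reverse, so this r cannot tell a joint rise from shared signal. Hspa1b with Dnajb1, Hsph1, Hspa8 and Hsp90aa1 gave r = 0.36, 0.58, 0.31 and 0.12, with adjusted permutation p from 0.71 to 0.85 (rho 0.62, 0.52, 0.17 and 0.21, adjusted permutation p from 0.46 to 0.88). The r with Hsph1 was 0.05 without Ptch1ΔCol1 replicate 1 and 0.79 without replicate 2. None of the 9 relations passed.

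Muscle markers were read beside these genes because small heat shock proteins are abundant in muscle. Of 12 smooth muscle genes all 12 had a higher mean and 0 were called (10 of 12 without Ptch1ΔCol1 replicate 3). Their mean log2 value was 10.48, 10.36, 10.61 and 10.55 in Ptch1ΔCol1 replicates 1 to 4 and 10.36, 10.34, 10.36 and 10.16 in the controls. The groups only just did not overlap, at 10.3625 for the lowest Ptch1ΔCol1 mouse and 10.36 for the highest control (median log2 fold change 0.14). Of 12 striated muscle genes 9 had a higher mean, 3 a lower mean and 0 were called, and their median log2 fold change of 0.22 was 0.12 without replicate 3. Their mean was from 4.35 to 4.65 in Ptch1ΔCol1 mice, highest in replicate 3, and from 4.23 to 4.30 in controls. In every mouse this mean lay below the array medians (4.69 to 4.8), so much of the list was read at dim levels. Myh1, Myh2, Myh4, Myh7, Mylpf, Ttn and Tnnc2 were below the median of the array in every mouse, while Acta1, Actn3, Ckm and Tnnt3 were above. Tnni2 was above it only in Ptch1ΔCol1 replicate 3. Within the groups the smooth muscle mean went with Hspb8 at r = 0.73 (permutation p = 0.064, adjusted p = 0.29) and rho = 0.83 (permutation p = 0.031, adjusted p = 0.28), and r was 0.54 without the 2 farthest mice. With Hspb1, Hspb6 and Cryab it was -0.23, 0.27 and -0.22 (adjusted permutation p = 0.71 each), with rho of 0.00, 0.26 and -0.14 (adjusted permutation p from 0.88 to 1). The part of muscle in the differences of these genes was not tested.

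Other marker lists overlapped between the groups in their means. The 8 epithelial genes had a mean from 12.1 to 12.3 in Ptch1ΔCol1 mice and from 12.11 to 12.15 in controls, 7 higher and 1 lower (5 and 3 without Ptch1ΔCol1 replicate 3). Leukocyte genes, all 5 lower, were from 5.57 to 6.92 in Ptch1ΔCol1 mice, lowest in replicate 3, and from 6.62 to 7.13 in controls. Without that mouse 3 were lower and 2 higher, and the median log2 fold change of -0.27 was -0.095. Endothelial genes were from 7.38 to 8.55 and from 8.01 to 8.38, again lowest in replicate 3, with 3 of 4 lower and 0 of 4 without that mouse. In that mouse Hspa1a and Hspa1b were highest, and the part of its cell composition in those values was not tested. Fibroblast genes lay from 9.24 to 10.1 in Ptch1ΔCol1 mice and from 9.40 to 9.74 in controls, glial genes from 5.4 to 5.68 and from 5.38 to 5.68, and adipocyte genes from 7.09 to 8.34 and from 6.87 to 7.98. All 4 adipocyte genes had a higher mean and 0 were called, and their median log2 fold change of 0.46, the largest of the cell marker lists, moved between 0.28 and 0.78 when a mouse was left out (0.28 without Ptch1ΔCol1 replicate 1, 0.29 without control replicate 3, 0.78 without Ptch1ΔCol1 replicate 3). Interstitial cells of Cajal, the pacemaker cells, were marked by 3 genes with a mean of 9.07 to 9.30 and 9.15 to 9.21. Of these, Ano1 overlapped and the other genes went opposite ways. Kit was lower in Ptch1ΔCol1 mice without overlap (8.57 to 8.91 against 8.93 to 9.11). Etv1 was higher without overlap (7.49 to 7.98 against 7.25 to 7.45). Of 6 glial genes 4 were measured. S100b was higher without overlap (4.62 to 5.27 against 3.88 to 4.45), and the other 3 had a lower mean. No gene of either list was called.

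Immediate early genes, which respond within minutes to handling of tissue, were at a mean from 8.24 to 8.65 in Ptch1ΔCol1 mice and from 7.79 to 8.34 in controls, 7 of 8 higher with a median log2 fold change of 0.25. Without control replicate 4, the lowest, 6 of 8 were higher and the median was 0.11, and without Ptch1ΔCol1 replicate 2, the highest, 5 of 8 and 0.15. Atf3, a stress-induced repressor of this list, was at 8.65, 9.24, 9.39 and 8.95 in Ptch1ΔCol1 replicates 1 to 4 and at 8.29, 8.79, 8.75 and 8.36 in the controls. Only replicate 1 lay within the range of the controls, as it did for Hspa1b, and the log2 fold change of Atf3 was 0.51 (SE 0.18, limma adjusted p = 0.462). The part of handling in the values of Hspa1a, Hspa1b and Hspb1 was not tested.

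**Figure D5:**
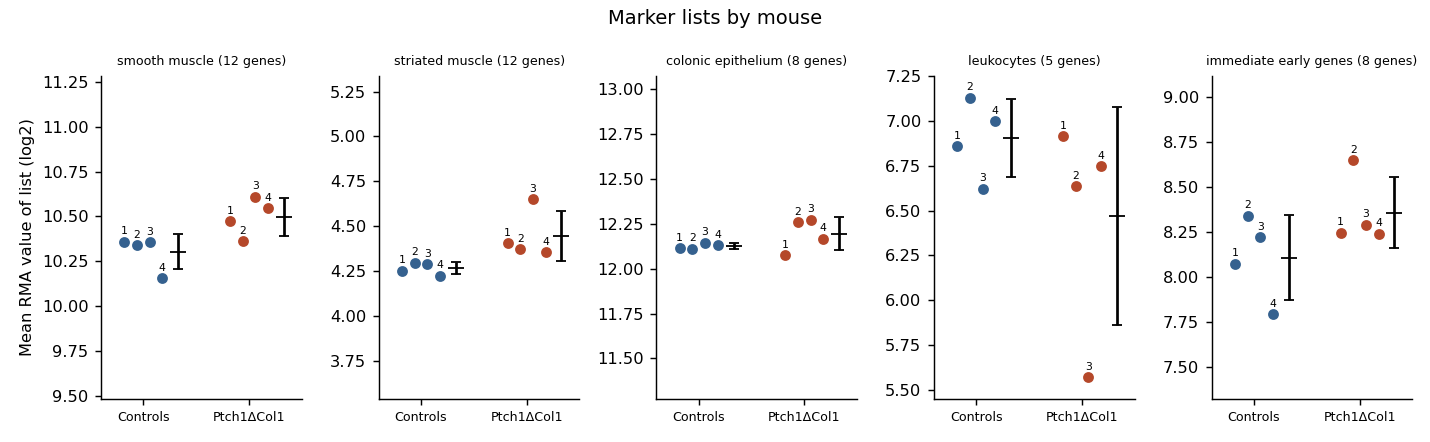
Mean RMA value on the log2 scale (y axis) of the genes of 5 marker lists in each mouse, with replicate numbers and the mean with SD as the bar. Smooth and striated muscle lists do not overlap between the groups (10.3625 to 10.61 against 10.16 to 10.36, and 4.35 to 4.65 against 4.23 to 4.30), the other lists do, and Ptch1ΔCol1 replicate 3 is lowest for leukocytes at 5.57. The striated muscle means lie below the array medians of 4.69 to 4.8.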

How the data were processed

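Gene expression was measured on 1-colour Affymetrix Mouse Gene ST 2.0 arrays in 4 Ptch1ΔCol1 mice and 4 controls. The authors deposited log2 values with 2 decimals, normalized by robust multi-array average (RMA) with median polish over transcript clusters, the probe groups of this array; its software and annotation were not stated. The number of arrays limits the precision, and RMA scales arrays to each other, so a shift of most genes would not be seen.

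Of 41345 clusters, 23521 had 1 symbol, 1820 several and 16004 none; 23328 were matched by gene ID to RefSeq (GRCm38.p6). The brightest cluster of each of 22180 genes was used, and 1082 genes had several. The test between groups was that of limma (version 3.58.1, R 4.3.3; lmFit with eBayes, Benjamini-Hochberg over all genes, threshold 0.05), and the fit was tested on simulated data. The mice are separate animals, so p-values measure the spread between animals. Relations between genes were tested by exact permutation in Python 3.11.15. Members and lists were chosen with earlier results of these data known. All 10 members are named in full, and of each list the genes past the threshold or up to 2 at each end by log2 fold change; Dnajc15, Bag6, Calr, Bag3 and Atf3 were named after their values were seen. Alternatives were cluster averaging, single clusters, dim genes left out (below percentile 40 of mean level), other scalings, variance models, array weights, covariates, each kind of control, females alone, a replicate block and each mouse left out. Same-numbered mice did not deviate together (correlation of deviations from -0.05 to 0.03).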

Additional observations from a re-analysis of the deposited data

Results flagged for a closer look

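Of 52 groups of 4 mice, for the clusters of the 10 genes and the means of the marker lists, 5 held a mouse far from the other 3 by the 95% limit of Dixon's test, which chance exceeds in about 1 of 20 groups. In the Hspb1 cluster used here control replicate 2, at 7.74, lay below the rest of its group (8.01 to 8.05). In the dimmer Hspb1 cluster control replicate 1 was at 4.24 and the others from 3.84 to 3.90. For the smooth muscle mean control replicate 4 was at 10.16 and the others from 10.34 to 10.36. The mean of the genes of interstitial cells of Cajal was 9.07 in Ptch1ΔCol1 replicate 3 and from 9.27 to 9.30 in the others. The mean of the immediate early genes was 8.65 in Ptch1ΔCol1 replicate 2 and from 8.24 to 8.29 in the others.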

How the results depend on the processing

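The difference of Hspb1 is given without a test here too. None of the other 9 members was called in any of 21 alternatives, nor was any of the 84 other chaperone genes. For the values of single genes among the latter, leaving out a mouse was an alternative chosen after seeing the data. The number of genes called over the whole array, 6 as reported, depended on the setting. It was 2 with every transcript cluster tested on its own, 3 after quantile normalization, 11 with a trended and robust variance, 1 with sex in the model, 2 with the reporter allele in the model, 3 with the replicate block, 1 against the Ptch1fl/+ controls alone, 0 against the R26-tdTomato controls alone (606 genes up and 703 down by an unadjusted p below 0.05), 3 in females only and from 1 to 12 when a mouse was left out (12 without Ptch1ΔCol1 replicate 3, 4 without replicate 2, 2 without replicate 4, and 1 without replicate 1 or any control). The replicate block changed no call of a member. The median log2 fold change of the 9 members without Hspb1, 0.12, lay from 0.093 to 0.21, and that of all 10, which holds the gene chosen for its rise, from 0.13 to 0.21. Hspb6 turned to -0.10 against the Ptch1fl/+ controls alone, and lay from -0.04 (without Ptch1ΔCol1 replicate 1) to 0.15 when a mouse was left out, and Dnajb1 turned to 0.033 against the Ptch1fl/+ controls alone. With the deposited values of all 8 mice in place of deviations, Hspa1b went with Hspa1a at r = 0.90 (adjusted permutation p = 0.017). This was past the threshold. With these values the difference between the groups enters r, and the mice were permuted over both groups rather than within them. Which of these changes took the relation past the threshold was not tested. Probes that catch transcripts of both genes limit this r as well. With the same values r turned to -0.0034 for Hspa1b with Dnajb1 and to -0.0085 with Hsph1. It turned to 0.57 and 0.32 for the smooth muscle mean with Hspb1 and Cryab. In females only r was -0.10 for Hspa1b with Hspa8 and 0.20 for the smooth muscle mean with Cryab, and without the 2 farthest mice it was -0.61 for Hspa1b with Hspa8 and -0.60 for the smooth muscle mean with Hspb6. Leaving out a mouse was an alternative chosen after seeing the data for these relations. For Hspa1b it moved r from -0.44 to 0.60 with Hspa8 and from -0.49 to 0.79 with Hsp90aa1. The r of Hspa1b moved from 0.052 to 0.79 with Hsph1 and from 0.56 to 0.93 with Hspa1a. For the smooth muscle mean r moved from -0.088 to 0.47 with Hspb6 and from -0.72 to 0.15 with Cryab. By the same alternative, also chosen after seeing the data for genes outside the members, log2 fold changes turned sign for Hspa12a (-0.013 to 0.29), Hspa4l (-0.18 to 0.0042), Hsf2 (-0.11 to 0.03), Hsf4 (-0.20 to 0.04), Hsf5 (-0.058 to 0.25) and Herpud1 (-0.095 to 0.068). The cause of these changes was not tested.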
